A study of Mus musculus with 6 samples.

Results

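The extracellular matrix genes of monocytes and stroma described here are 38 of the 18341 genes in the deposited table. They were chosen by name, with earlier results of these data known, and all 38 were found. Of these, 5 are matrix genes that monocytes make themselves: Thbs1, Tgfbi, Fn1, Vcan and Emilin2. The other 33 are collagens, basement membrane genes, proteoglycans, and genes of collagen crosslinking, folding and hydroxylation. They are best known from fibroblasts, vessels and other stromal cells. The RNA came from tumour monocytes of C57BL/6 mice that had carried B16.F10 cells, a mouse melanoma line that makes pigment, under the skin for 13 days. The tumour cells overexpressed BAFF, a B cell survival factor, in 3 libraries and were control cells in the other 3. The mouse strain, the tumour line, the site and the day were common to both groups. No source used here gives the sorting gate, the age of the mice or the BAFF construct, and 1 label of each sample names the tumour line rather than the sorted cells. Whether each library is a different animal is not labelled, so p-values measure only the spread between these samples, which may be technical.

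The matrix is laid down in layers of work. Collagen chains are hydroxylated and folded into triple helices inside the cell with the help of the chaperone encoded by Serpinh1, then trimmed outside it and tied together by lysyl oxidases. Basement membranes are sheets of laminin, type IV collagen, nidogen and perlecan under vessels and around muscle and nerve. Monocytes and macrophages add few collagens but secrete adhesive glycoproteins such as thrombospondin 1 and fibronectin and the proteoglycan versican, which together make a loose, provisional matrix in wounds and tumours.

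A promoter sequence was matched for 26 of the 38 members in RefSeq (GRCm38.p6), and 4 are shown because their genes stand for the patterns below and no annotated exon lies in the window. Each is the 250 bases before the annotated start, 5′ to 3′ on the gene's strand. Vcan, at chr13:89742513-89742762 on the minus strand, belongs to the monocyte-made genes. Col3a1, at chr1:45311288-45311537 on the plus strand, is a fibroblast collagen gene that was high in 1 control library. Serpinh1, at chr7:99353240-99353489 on the minus strand, and Plod1, at chr4:147936777-147937026 on the minus strand, are genes of collagen folding and hydroxylation. Both were called lower with BAFF after rescaling, and Serpinh1 also before it. Capitals mark a CCAAT box, here read on the opposite strand as ATTGG, or a TATAAA box, which reads TTTATA on the opposite strand.
Vcan: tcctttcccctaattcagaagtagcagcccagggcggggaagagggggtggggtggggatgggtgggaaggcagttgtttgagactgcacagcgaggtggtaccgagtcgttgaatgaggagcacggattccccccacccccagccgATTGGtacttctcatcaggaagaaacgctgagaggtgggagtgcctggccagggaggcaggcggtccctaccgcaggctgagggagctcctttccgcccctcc
Col3a1: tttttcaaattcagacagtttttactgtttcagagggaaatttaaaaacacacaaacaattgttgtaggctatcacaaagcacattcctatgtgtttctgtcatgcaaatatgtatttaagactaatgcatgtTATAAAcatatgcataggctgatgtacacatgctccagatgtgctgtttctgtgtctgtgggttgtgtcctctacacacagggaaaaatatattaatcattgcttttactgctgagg
Serpinh1: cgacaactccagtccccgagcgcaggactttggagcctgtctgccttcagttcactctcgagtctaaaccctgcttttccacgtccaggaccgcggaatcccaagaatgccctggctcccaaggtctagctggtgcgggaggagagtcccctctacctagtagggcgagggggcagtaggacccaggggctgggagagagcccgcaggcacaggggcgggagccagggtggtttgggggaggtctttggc
Plod1: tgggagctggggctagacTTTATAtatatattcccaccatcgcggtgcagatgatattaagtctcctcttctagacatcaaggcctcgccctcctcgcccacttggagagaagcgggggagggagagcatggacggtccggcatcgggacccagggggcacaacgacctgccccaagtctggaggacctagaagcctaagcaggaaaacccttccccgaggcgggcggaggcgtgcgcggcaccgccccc
On either strand, CCAAT was found in the windows of 7 of the 26 members and in 33.8% of 32536 windows in the table. TATAAA was found for 4 of the 26 and in 12.3% of windows, and the AP-1 sequence TGANTCA for 2 of the 26 and in 6.73%. The printed windows of Vcan, Col3a1 and Plod1 hold 1 match each, and that of Serpinh1 holds none.

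Values are CPM, which scale the reads of a gene to the size of its library, and 1 CPM stood for an estimated 4.72 to 27.6 reads, the fewest in control tumours 2 and 3. A level of 3 reads was 0.109 to 0.635 CPM. Genes in the table held 61.1% to 66.1% of the library total in the BAFF tumours and control tumour 1, 50.2% in control tumour 2 and 39.8% in control tumour 3. The median log2 difference, BAFF minus control, over all 12824 tested genes was 0.23 on the deposited scale. Each result is given also after median-of-ratios rescaling (RLE), where that median was 0.01. Tests are limma-trend on log2(CPM + 1), with genes called at a Benjamini-Hochberg adjusted p under 0.05 over all tested genes, and differences carry their SE. On the deposited scale the SE is pooled over genes of like level and is not a gene's own spread. Monocyte genes were abundant in all 6 libraries: Lyz2 ranged from 2693 to 5978 CPM, Csf1r from 411 to 712 CPM and Ccr2 from 406 to 926 CPM. Control tumour 1 stood apart in the stromal genes, so those results are given with and without it.

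RNA of the matrix genes that monocytes make was higher in the BAFF libraries, except for Fn1, whose groups overlapped. Matrix protein was not measured. Of the 5 genes, 3 were called higher on the deposited scale (Thbs1, Tgfbi and Vcan) and 4 after RLE, when Emilin2 was added. None was called lower on either scale, and 0 had an unadjusted p under 0.05 in that direction by limma. Over all tested genes, 1.81% were called higher and 3.5% lower on the deposited scale, and 7.18% and 9.91% after RLE. The median log2 difference of the 5 was 0.97 deposited and 0.72 after RLE. On both scales 4 of the 5 had every BAFF library above every control library, as had 11.4% of all tested genes deposited and 17.3% after RLE. In bulk RNA, fewer cells of a type and less RNA per cell cannot be told apart, for these genes and for those below.

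Thbs1, which encodes thrombospondin 1, an adhesive glycoprotein that restrains angiogenesis and activates latent TGF-beta, measured 8538, 6478 and 5984 CPM in BAFF tumours 1, 2 and 3. In control tumours 1, 2 and 3 it measured 3909, 2717 and 3235 CPM. The groups did not overlap, with means of 7000 ± 1355 and 3287 ± 598 CPM (SD, n = 3 each). The log2 difference was 1.09 ± 0.33 with an adjusted p of 0.0236 by limma on the deposited scale, and 0.84 ± 0.22 with an adjusted p of 0.0224 after RLE, a 1.78-fold difference. That call was the least stable after RLE: omission of any single library except BAFF tumour 3 and control tumour 3 raised the limma adjusted p to between 0.0542 and 0.0958. An annotated antisense RNA shares exon bases with Thbs1, and the kit did not mark strand.

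Tgfbi encodes a TGF-beta induced adhesion protein that binds collagen and integrins. It measured 1446, 1289 and 1258 CPM in the BAFF tumours and 700, 607 and 463 CPM in the controls. Every BAFF library was above every control library. The limma log2 difference was 1.19 ± 0.33 (adjusted p 0.00903) deposited and 0.94 ± 0.13 (adjusted p 0.000508) after RLE, a 1.91-fold difference. Vcan encodes versican, a large proteoglycan that binds hyaluronan. It measured 392, 417 and 439 CPM with BAFF and 279, 202 and 168 CPM in controls, again without overlap. Its limma log2 difference was 0.97 ± 0.32 deposited, with an adjusted p of 0.0498 at the edge of the threshold, and 0.72 ± 0.10 with an adjusted p of 0.000623 after RLE. Emilin2, a glycoprotein of elastic fibre interfaces, measured 835, 746 and 653 CPM with BAFF and 524, 386 and 336 CPM in controls. It was called after RLE (0.60 ± 0.12, limma adjusted p 0.00611) and not on the deposited scale (0.86 ± 0.32, adjusted p 0.107), although its groups did not overlap on either.

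Fn1, which encodes fibronectin, the main adhesive protein of provisional matrix, measured 1190, 658 and 917 CPM with BAFF. The controls were at 828, 638 and 649 CPM, so 1 control lay inside the BAFF range and 2 just below it. The limma log2 difference was 0.35 ± 0.33 (adjusted p 0.599) deposited and 0.10 ± 0.22 (adjusted p 0.799) after RLE. The calls of Thbs1, Tgfbi and Vcan on the deposited scale survived only the omission of control tumour 1 or control tumour 3. Omitting any of the other 4 libraries ended them, with limma adjusted p up to 0.387, 0.196 and 0.384. After RLE, Tgfbi, Vcan and Emilin2 were called in all 6 fits that left out 1 library, with limma adjusted p up to 0.00303, 0.00381 and 0.0296. Each such fit called 510 to 774 of all 12824 tested genes higher, and the share called in all 6 was not counted.

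**Figure D1:**
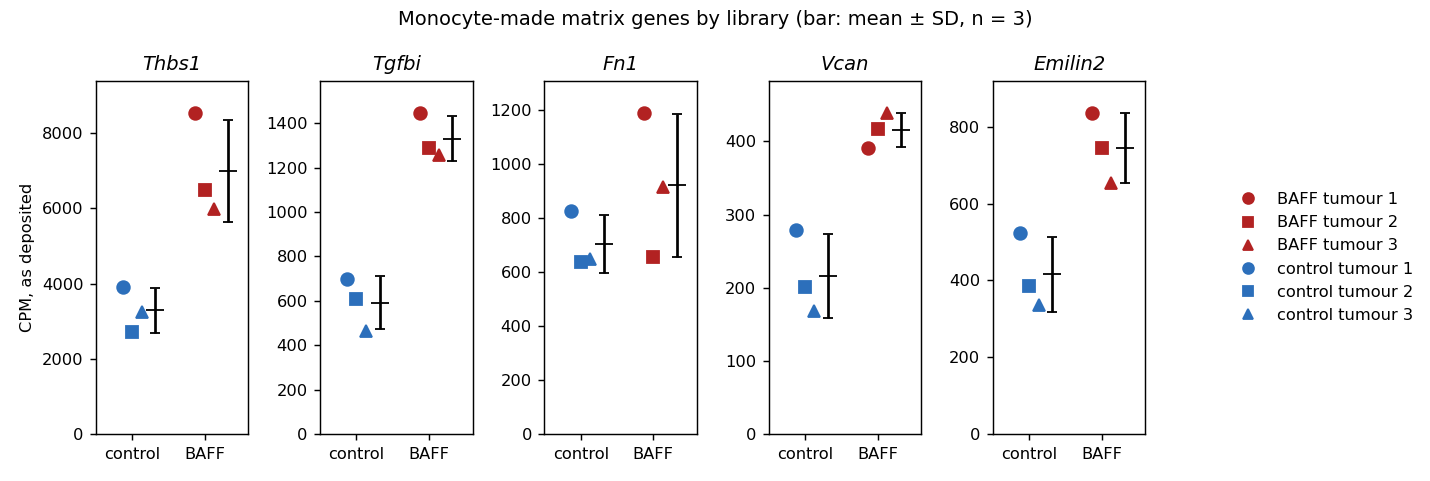
Deposited CPM of the 5 monocyte-made matrix genes, 1 point per library with the group mean and SD (n = 3) as a bar beside them; each panel has its own linear axis from 0. The 3 BAFF points lie above the 3 control points for Thbs1, Tgfbi, Vcan and Emilin2, and the groups overlap for Fn1.

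Per length of annotated exons, Thbs1 was also the most abundant of the 38 genes, with a mean level of 1153 CPM per kb in BAFF tumours and 541 in controls. Tgfbi followed at 353 and 157, Emilin2 at 135 and 75.5, Fn1 at 78.9 and 60.3 and Vcan at 28.8 and 14.9 CPM per kb. The highest stromal levels were those of Ecm1, at 10.9 and 8.37, and Plod1, at 7.29 and 9.85 CPM per kb. The next, Serpinh1, was at 2.76 and 6.27 CPM per kb. Summed CPM of the 5 monocyte-made genes was 12401, 9588 and 9250 in the BAFF tumours against 6240, 4550 and 4850 in the controls, and that of the 33 stromal genes was 279, 213 and 196 against 749, 263 and 193. The stromal sum was far below the monocyte-made sum in every library, and on this scale it set control tumour 1 apart from the other 5. After RLE the stromal sum was 261, 187 and 184 with BAFF and 591, 291 and 289 in controls, so that the groups no longer overlapped, with control tumour 1 again the highest.

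Collagens and other stromal genes did not follow the monocyte-made ones. Of the 33 genes 32 passed the filter of a mean of 1 CPM, and Lox did not. On the deposited scale 0 were called higher, 3 were called lower (Lama4, Pcolce and Serpinh1) and 29 were not called, against 3.5% of all tested genes called lower. After RLE 12 were called lower against 9.91% of all genes, and again 0 higher. By unadjusted limma p under 0.05, 18 were lower deposited and 20 after RLE, with 0 higher on either scale. The share of all tested genes under that cutoff was not counted, so these 2 counts have no background to be read against. The median log2 difference of the 32 was -0.67 deposited and -0.86 after RLE. Without control tumour 1 these medians were -0.09 and -0.45, and 7 genes were called lower after RLE, against 8.16% of all tested genes. In that fit 0 were called higher, against 6.04%. The deposited values gave 3 lower without that library, against 4.5%, and 2 higher (Col3a1 and Dcn), against 36%.

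The level in control tumour 1 was the highest of the 6 for 32 of the 33 genes on the deposited scale, where 51.4% of all tested genes peaked in that library. After RLE it was the highest for 28 of 33, against 14.6% of all tested genes. Relative to the mean of control tumours 2 and 3 after RLE, the stromal genes in control tumour 1 had a median ratio of 2.70, from 0.892 to 7.07, and 21 of 33 exceeded 2. Over all tested genes the median ratio was 1.00 and 1.53% exceeded 2. The 5 monocyte-made genes lay between 0.781 and 0.929. Among the BAFF libraries, BAFF tumour 1 was the highest for 30 of 33 stromal genes after RLE, against 33.9% of all tested genes.

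**Figure D2:**
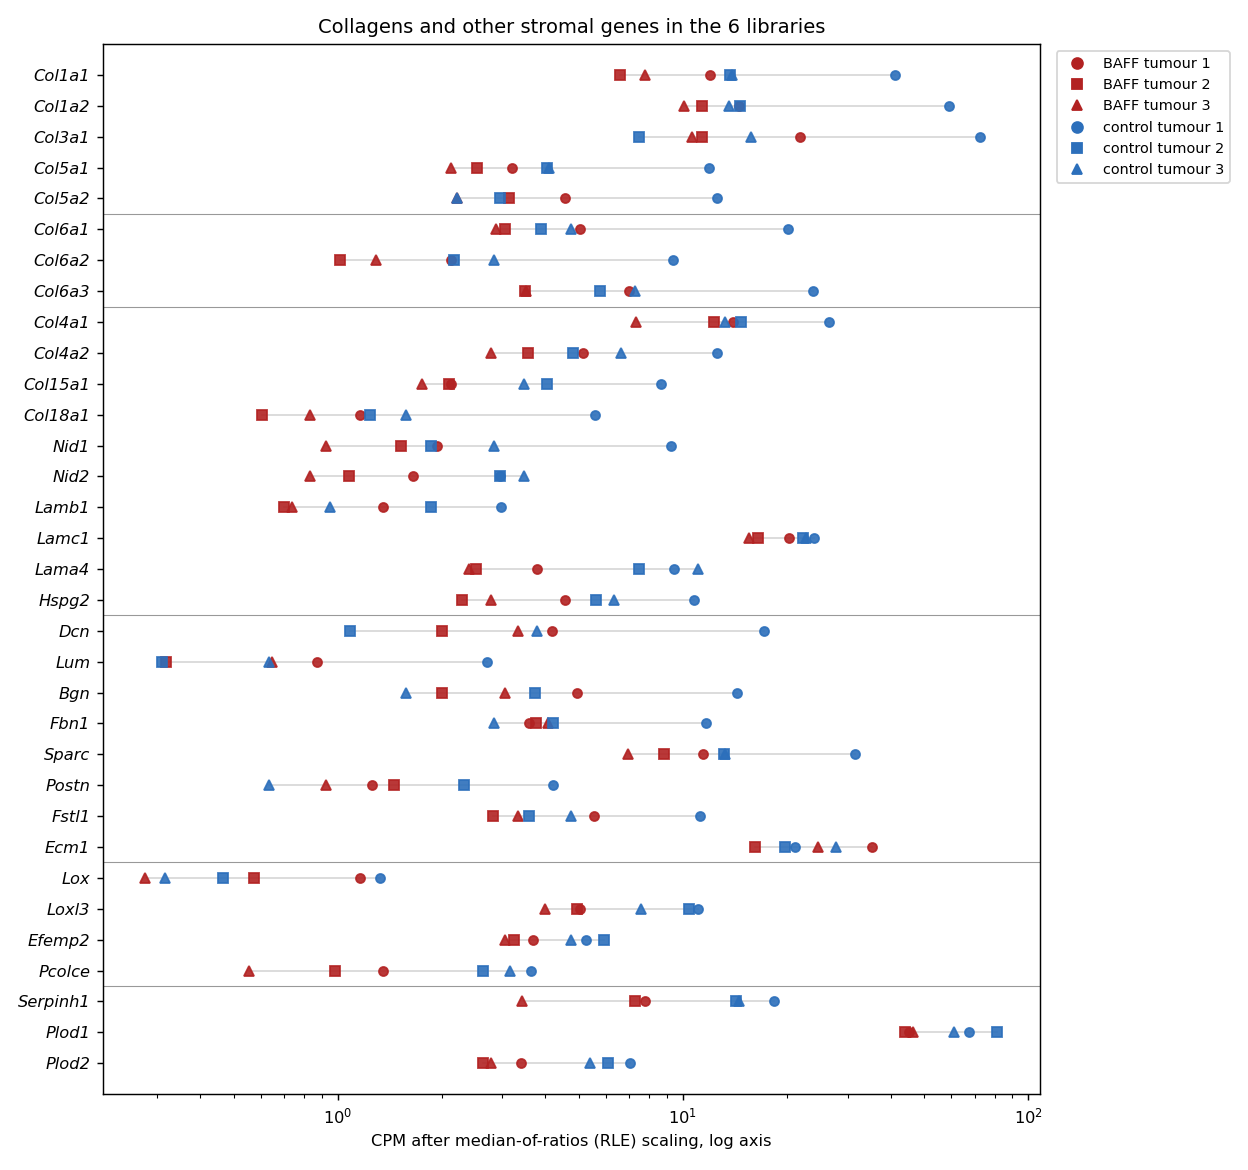
CPM after RLE of the 33 stromal genes on a log axis, 1 point per gene and library, with genes in blocks by role. Control tumour 1 is the rightmost point for 28 of the 33, and Ecm1 is highest in BAFF tumour 1.

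Fibrillar collagens, the rope-like collagens of connective tissue, showed the contrast between libraries most plainly. Col1a1, a chain of type I collagen, measured 12.9, 7.50 and 8.29 CPM in BAFF tumours 1, 2 and 3, and 52.3, 12.4 and 9.31 CPM in control tumours 1, 2 and 3. Its partner chain Col1a2 measured 15.5, 13.0 and 10.8 CPM with BAFF and 74.7, 13.2 and 9.10 CPM in controls. Both chains were high in 1 control library, and the other controls lay near the BAFF tumours. Col3a1, the type III chain of elastic tissues, measured 23.3, 13.0 and 11.4 CPM with BAFF and 91.9, 6.74 and 10.6 CPM in controls, so that 2 of its 3 controls lay below all 3 BAFF libraries. Of the 5 fibrillar genes 0 were called on the deposited scale, where limma log2 differences ran from -0.92 to -0.25. After RLE Col1a1 was called lower (-1.14 ± 0.35, limma adjusted p 0.0411), and without control tumour 1 it was not (-0.63 ± 0.21, adjusted p 0.0700). Without that library the differences of Col3a1 and Col5a2 turned positive on both scales as did that of Col1a2 before rescaling, and Col3a1 was called higher deposited (0.77 ± 0.24, limma adjusted p 0.00710) but not after RLE (0.32 ± 0.31, adjusted p 0.545). The Col1a1 to Col1a2 ratio of CPM stayed between 0.578 and 1.02 in the 6 libraries, and control tumour 1, at 0.700, was inside the range of the others.

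Type VI collagen forms beaded filaments around cells. Its chain Col6a1 measured 5.39, 3.48 and 3.06 CPM with BAFF and 25.6, 3.51 and 3.18 CPM in controls, again with 1 high library and no separation of the rest. Col6a2 reached 11.9 and Col6a3 30.1 CPM in control tumour 1, against 1.16 to 2.28 and 3.75 to 7.46 CPM in the other 5 libraries. None of the 3 was called by limma on either scale, with the smallest adjusted p being 0.0538, for Col6a2 deposited. After RLE the 3 log2 differences lay between -1.04 and -0.88, and between -0.51 and -0.22 without control tumour 1.

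The basement membrane genes were mixed. Lama4, the laminin alpha chain of vessel walls, measured 4.04, 2.86 and 2.57 CPM with BAFF and 11.96, 6.74 and 7.41 CPM in controls. All 3 controls were above all 3 BAFF libraries, with means of 3.16 ± 0.78 and 8.70 ± 2.84 CPM (SD, n = 3 each). The limma log2 difference was -1.20 ± 0.31 (adjusted p 0.00459) deposited and -1.41 ± 0.19 (adjusted p 0.000545) after RLE. It was -1.38 ± 0.23 (adjusted p 0.00224) after RLE without control tumour 1, close to the value with it. The deposited-scale call was lost without BAFF tumour 2 (adjusted p 0.131) or 3 (adjusted p 0.155). Nid2, a nidogen that links laminin to type IV collagen, measured 1.76, 1.23 and 0.888 CPM with BAFF and 3.73, 2.67 and 2.33 CPM in controls, without overlap. It was called after RLE (-0.93 ± 0.20, limma adjusted p 0.00826) and not on the deposited scale (-0.77 ± 0.30, adjusted p 0.127).

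Its relative Nid1 measured 2.07, 1.74 and 0.987 CPM with BAFF and 11.7, 1.69 and 1.91 CPM in controls. Nid1 was high in control tumour 1 alone and was not called (limma adjusted p 0.0772 deposited, 0.0991 after RLE). Col4a1 and Col4a2, the common chains of type IV collagen, reached 33.7 and 15.9 CPM in control tumour 1 and overlapped elsewhere, at 7.80 to 14.9 and 2.96 to 5.49 CPM. They share annotated exon bases with each other on opposite strands, so their reads may be split between them. Col15a1, a vascular collagen, and Hspg2, which encodes perlecan, were called lower after RLE (limma adjusted p 0.0207 and 0.0165) but not without control tumour 1 (0.0530 and 0.0548). Col18a1, the source of endostatin, Lamb1 and Lamc1 were not called on either scale. In all, 1 of the 10 basement membrane genes was called lower deposited, 4 after RLE, and 2 after RLE without control tumour 1. Over all tested genes those shares were 3.5%, 9.91% and 8.16%.

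Among proteoglycans, microfibril and matricellular genes, 0 of 8 were called on the deposited scale. Dcn encodes decorin, a small proteoglycan that coats collagen fibrils. It measured 4.46, 2.28 and 3.55 CPM with BAFF and 21.8, 0.983 and 2.54 CPM in controls, so the controls held both the highest level and the lowest. Without control tumour 1 its limma log2 difference moved from -0.32 to 0.71 ± 0.27 (adjusted p 0.0252) on the deposited scale, and to 0.35 ± 0.33 (adjusted p 0.526) after RLE. Lum, Bgn and Fbn1, which encode lumican, biglycan and fibrillin, also turned positive without that library, on both scales, and were not called. Lum rests on few reads, an estimated 94 in control tumour 1 and 2 each in control tumours 2 and 3. Sparc, a collagen-binding matricellular protein, measured 12.2, 10.04 and 7.40 CPM with BAFF and 40.1, 11.9 and 8.89 CPM in controls. It was called lower after RLE (-0.92 ± 0.28, limma adjusted p 0.0430) and not without control tumour 1 (-0.52 ± 0.19, adjusted p 0.0927). Postn and Fstl1 were not called.

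Ecm1, a secreted glycoprotein also made by blood cells, was the 1 stromal gene that did not peak in control tumour 1 on the deposited scale. After RLE, Nid2 and Lama4 peaked in control tumour 3 and Efemp2 and Plod1 in control tumour 2. It measured 37.7, 18.4 and 26.3 CPM with BAFF and 26.9, 17.8 and 18.6 CPM in controls, with overlapping groups. Its limma log2 difference was 0.33 ± 0.32 (adjusted p 0.614) deposited and 0.09 ± 0.23 (adjusted p 0.834) after RLE. It was the only one of the 32 tested stromal genes above 0 on those scales. The Ecm1 level was highest in BAFF tumour 1, as was that of 4 of the 5 monocyte-made genes on both scales. Of all tested genes, 11.2% peaked in that library deposited and 16.3% after RLE.

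All 3 genes of collagen folding and hydroxylation among the members, Serpinh1, Plod1 and Plod2, were called lower in BAFF tumours after RLE, with or without control tumour 1. Of the 3 tested genes of crosslinking and extracellular assembly, 3 were called lower after RLE and 2 without that library. Over all tested genes, 9.91% were called lower after RLE and 8.16% without that library. Serpinh1, the collagen chaperone, measured 8.29, 8.30 and 3.65 CPM with BAFF and 23.3, 12.9 and 9.74 CPM in controls. The groups did not overlap. Its limma log2 difference was -1.06 ± 0.31 (adjusted p 0.0203) deposited, -1.28 ± 0.23 (adjusted p 0.00301) after RLE and -1.17 ± 0.26 (adjusted p 0.0110) after RLE without control tumour 1. Plod1 encodes a lysyl hydroxylase that prepares collagen for crosslinking. It measured 48.3, 50.1 and 49.5 CPM with BAFF and 85.2, 73.7 and 40.9 CPM in controls, so control tumour 3 was the lowest of the 6 before rescaling. After RLE, which raises control tumour 3 most, the groups did not overlap, and the limma log2 difference was -0.61 ± 0.12 (adjusted p 0.00365). Before rescaling it was -0.36 ± 0.32 (adjusted p 0.589). Plod2, a related hydroxylase, measured 3.63, 3.01 and 2.96 CPM with BAFF and 8.93, 5.48 and 3.60 CPM in controls. It was called after RLE (-0.86 ± 0.17, limma adjusted p 0.00514) and not on the deposited scale (-0.67 ± 0.31, adjusted p 0.238).

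Pcolce, an enhancer of procollagen trimming, measured 1.45, 1.12 and 0.592 CPM with BAFF and 4.61, 2.39 and 2.12 CPM in controls. Its groups did not overlap, and limma called it deposited (-0.95 ± 0.30, adjusted p 0.0360) and after RLE (-1.09 ± 0.21, adjusted p 0.00469). Their deposited-scale calls, for Pcolce and Serpinh1 alike, held only when the omitted library was control tumour 1 or control tumour 3, with limma adjusted p otherwise up to 0.433 and 0.592. Loxl3, a lysyl oxidase, measured 5.39, 5.62 and 4.25 CPM with BAFF and 14.0, 9.41 and 5.08 CPM in controls. It was called after RLE (-0.91 ± 0.17, limma adjusted p 0.00399) and not on the deposited scale (-0.70 ± 0.31, adjusted p 0.215). Efemp2, needed for elastic fibre assembly, was called after RLE with an adjusted p of 0.0446 and not without control tumour 1 (0.0899). Lox, the main collagen crosslinking oxidase, was too low to test, at 1.24, 0.652 and 0.296 CPM with BAFF and 1.68, 0.421 and 0.212 CPM in controls, the last an estimated 1 read. Pcolce, Loxl3, Nid2, Plod2 and Efemp2 share annotated exon bases with a neighbouring gene, which leaves their counts uncertain, and 16 of the 38 members do.

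The 7 genes called lower after RLE both with and without control tumour 1 were Lama4, Nid2, Loxl3, Pcolce, Serpinh1, Plod1 and Plod2. All 7 were called in each of the 6 RLE fits that left out 1 library, with limma adjusted p up to 0.0437. Each such fit called 824 to 1171 of all 12824 tested genes lower. The share called lower in all 6 was not counted, so these 7 have no background to be read against. The other 5 of the 12 (Col1a1, Col15a1, Hspg2, Sparc and Efemp2) were not called without control tumour 1. Before rescaling, 4 of the 33 stromal genes had every BAFF library below every control library (Nid2, Lama4, Pcolce and Serpinh1), against 6.6% of all tested genes, and after RLE 16 did, against 17.8%.

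**Figure D3:**
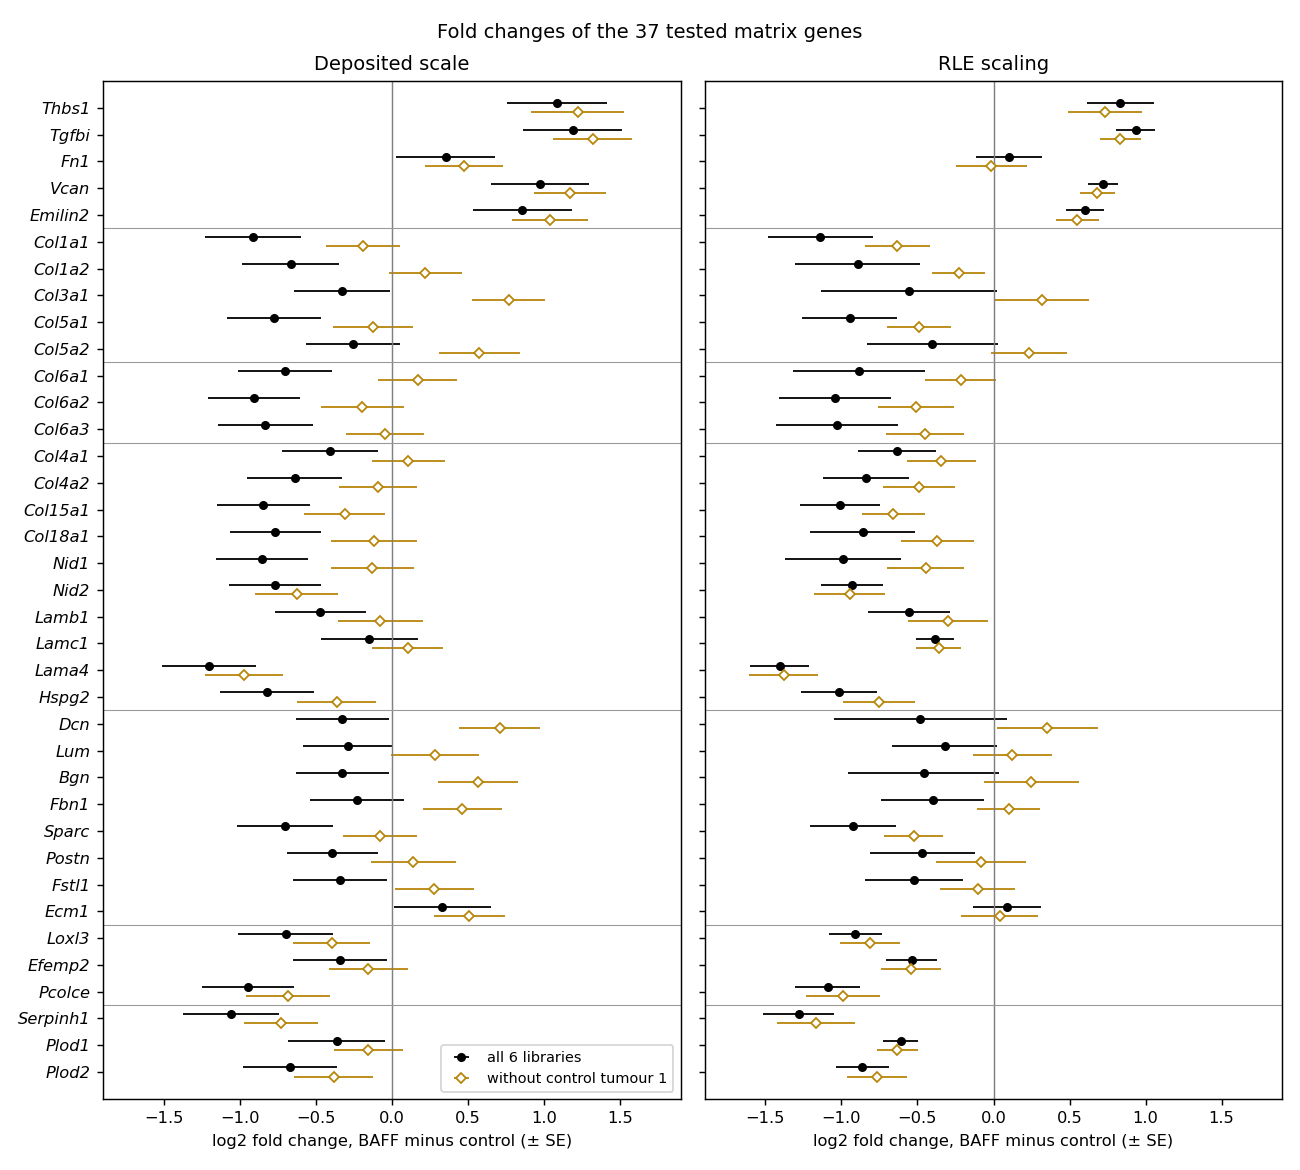
Log2 difference, BAFF minus control, of the 37 tested members by limma-trend, with SE as bars, on the deposited scale (left) and after RLE (right), for all 6 libraries (filled) and without control tumour 1 (open). The monocyte-made genes lie to the right of 0 apart from Fn1, which is near 0 after RLE; the collagens move toward or past 0 without control tumour 1, and after RLE Lama4, Serpinh1 and Plod1 keep their place.

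Further genes of matrix biology were read from 3 lists. Of 13 tested genes of collagen synthesis and crosslinking, 0 were called higher and 1 lower on the deposited scale, and 0 and 2 after RLE. Over all tested genes these shares were 1.81% and 3.5% deposited, and 7.18% and 9.91% after RLE. Loxl2, a lysyl oxidase, measured 1.55, 1.38 and 0.393 CPM with BAFF and 7.43, 2.39 and 1.48 CPM in controls (limma log2 difference -1.02 ± 0.30, adjusted p 0.0193 deposited and 0.0239 after RLE). That call was lost without control tumour 1 on both scales (adjusted p 0.123 and 0.0746) and, on 1 or both scales, without BAFF tumour 1, 2 or 3. P4ha2, a collagen prolyl hydroxylase subunit, was called lower after RLE (-0.78 ± 0.15, limma adjusted p 0.00356) and not on the deposited scale (0.369). Fkbp10, a collagen folding enzyme, was not called (-0.56 ± 0.30, adjusted p 0.330 deposited, 0.0761 after RLE).

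Of 19 tested other matrix proteins, 1 was called higher and 4 lower deposited, and 1 and 9 after RLE. Those counts stand beside 1.81% and 3.5% of all tested genes deposited, and 7.18% and 9.91% after RLE. Sparcl1, a relative of Sparc, had the widest gap: 3.52, 2.61 and 1.58 CPM with BAFF against 22.9, 15.2 and 19.1 CPM in controls, with a limma log2 difference of -2.51 ± 0.31 (adjusted p 5.03e-12) deposited and -2.72 ± 0.23 after RLE. Unlike Sparc itself, Sparcl1 was high in all 3 controls. Fbln5, an elastic fibre protein, measured 2.28, 2.28 and 0.888 CPM with BAFF and 13.2, 7.16 and 5.50 CPM in controls (-1.74 ± 0.31, limma adjusted p 6.5e-06). Lama5, a laminin chain of epithelium and vessels, measured 1.97, 1.63 and 0.691 CPM with BAFF and 6.84, 6.46 and 4.02 CPM in controls (-1.49 ± 0.31, limma adjusted p 0.000158). All 3 were called after RLE with and without control tumour 1. The gene called higher was Srgn, which encodes the proteoglycan of leukocyte granules, and the fourth lower one was Fbln1, a fibulin; both are named for these counts, after their values were seen.

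Of 14 tested matrix receptors and hyaluronan genes, 1 was called higher and 1 lower deposited, and 2 each after RLE. Cd44 then joined Sdc1, and Dag1, named after its value was seen, joined Ddr2. The shares of all tested genes were again 1.81% higher and 3.5% lower deposited, and 7.18% and 9.91% after RLE. Dag1 was not called without control tumour 1 (limma adjusted p 0.114 after RLE). Ddr2, a collagen receptor kinase of mesenchymal cells, measured 4.25, 3.23 and 3.26 CPM with BAFF and 13.9, 11.9 and 7.62 CPM in controls (limma log2 difference -1.38 ± 0.31, adjusted p 0.000811). Its deposited call was lost without BAFF tumour 2 or 3, with adjusted p of 0.0554 and 0.0537. Sdc1, a syndecan that binds thrombospondin and growth factors, measured 77.8, 54.0 and 37.7 CPM with BAFF and 32.7, 23.6 and 23.3 CPM in controls (1.02 ± 0.32, limma adjusted p 0.0306, and 0.0270 after RLE). This call ended on both scales when BAFF tumour 1, BAFF tumour 2 or control tumour 2 was omitted, before rescaling when BAFF tumour 3 was, and after RLE when control tumour 1 was. Cd44, the hyaluronan receptor of leukocytes, measured 777, 748 and 666 CPM with BAFF and 579, 387 and 295 CPM in controls, and was called after RLE (0.59 ± 0.10, limma adjusted p 0.00249) and not on the deposited scale (0.85 ± 0.32, adjusted p 0.114).

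Markers of other cell types were read beside these genes. For their counts, 1.81% of all tested genes were called higher and 3.5% lower deposited, and 7.18% and 9.91% after RLE. Of 10 fibroblast markers 8 were found and 5 tested, and limma called 0 in either direction on either scale. Their summed CPM was 56.4 to 100.3 in BAFF tumours and 42.5 to 83.7 in controls, most of it from Pdpn and Pi16. Without those genes, a reduction chosen after the values were seen, the sum was 6.74, 5.18 and 7.11 CPM with BAFF and 22.5, 5.90 and 2.54 CPM in controls. The full sum was highest in BAFF tumour 1 on both scales and the reduced sum in control tumour 1, so that order depended on the reduction. Pdpn and Pi16, the genes left out, had log2 differences above 0 after RLE (0.38 and 0.61) and were not called. Dpt and Fap were under 1 read in at least 1 library. Of the smooth muscle and pericyte markers 7 were found, with sums of 2.67 to 4.46 CPM in BAFF tumours and 9.18, 3.51 and 3.18 CPM in controls, and Myh11 and Des under 1 read in at least 1 library. Endothelial markers summed to 79.8 to 116.7 CPM with BAFF and 49.7 to 79.6 CPM in controls. Of the 5 tested, 0 were called by limma before rescaling and 2 were higher after RLE (Pecam1 and Kdr). The other 3, Cdh5, Vwf and Flt1, had log2 differences of -0.34, -0.30 and -0.04 after RLE and were not called. Most of the endothelial sum was Flt1 and Pecam1, and Tek, Tie1, Emcn, Esam and Erg were under 1 read in at least 1 library. The part of fibroblast, pericyte or endothelial RNA in the stromal results was not tested.

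Melanoma markers followed the group rather than control tumour 1 alone. All 13 were found. On both scales 10 of the 11 tested were called lower in BAFF tumours, against 3.5% of all tested genes deposited and 9.91% after RLE. Their summed CPM was 182, 168 and 88.1 with BAFF and 764, 461 and 440 in controls, with Dct and Tyrp1, enzymes of melanin synthesis, the most abundant. Of 8 resident macrophage markers 7 were tested, and 4 were called lower before rescaling (Lyve1, Folr2, Fcna and Cbr2) and 6 after RLE, when Mrc1 and Stab1 were added. Their summed CPM overlapped before rescaling, at 938, 1117 and 993 with BAFF and 2092, 1503 and 958 in controls. After RLE it did not, at 878, 979 and 930 with BAFF and 1651, 1662 and 1430 in controls, mostly from Mrc1 and Stab1, and Timd4 was under 1 read in at least 1 library. After RLE the melanoma and macrophage sums were lower in the same libraries as 7 stromal genes called lower. Those are genes of collagen folding, hydroxylation, crosslinking and assembly and of basement membrane. The part of melanoma or macrophage RNA in that result was not tested.

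Of 12 markers of Ly6C-high monocytes, 2 were called higher on the deposited scale (Chil3 and Hp) and 6 after RLE, and 0 lower. The shares of all tested genes called higher were 1.81% and 7.18%. Marker genes named beyond the most abundant 2 of a list were chosen after their values were seen. Their summed level after RLE was 10194, 10865 and 10162 with BAFF and 8848, 7034 and 8921 in controls, with Lyz2 and Cd14 the most abundant. After RLE these sums were higher in the same libraries as the monocyte-made matrix genes. Before rescaling the groups overlapped, at 10850 to 12401 CPM with BAFF and 11212, 6359 and 5977 CPM in controls. Their part in the matrix result was not tested. Neutrophil markers, led by Csf3r and S100a9, summed to 135 to 165 CPM with BAFF and 56.9 to 136 CPM in controls. Of the 5 tested, 3 were called higher before rescaling (S100a8, S100a9 and Cxcr2) and 2 after RLE (Retnlg and Csf3r). Platelets carry thrombospondin 1 in their granules. The 3 platelet markers found summed to 4.94 to 12.8 CPM with BAFF and 3.51 to 23.6 CPM in controls, mostly Ppbp, and the 1 tested was not called on either scale. Their sum was highest in control tumour 1 before rescaling and in control tumour 3 after RLE, and the part of platelet RNA in the Thbs1 result was not tested. T and NK cell markers summed to 4.21 to 8.85 CPM over the 6 libraries and B cell markers to 1.06 to 4.06 CPM.

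**Figure D4:**
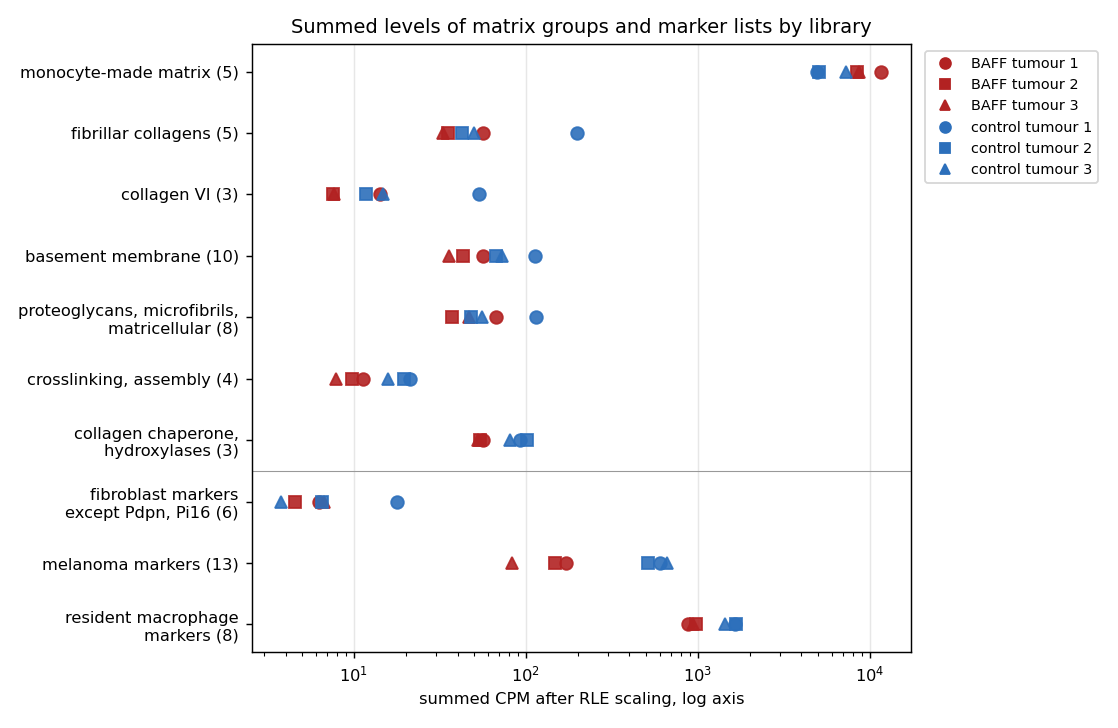
Summed CPM after RLE of the matrix groups and of 3 marker lists, 1 point per library, on a log axis, with the number of genes found in parentheses. The fibroblast list is shown without Pdpn and Pi16, which were left out after the values were seen. With them, which is not shown, the fibroblast sum was highest in BAFF tumour 1. The fibrillar collagen sum is highest in control tumour 1, the melanoma and resident macrophage sums are higher in all 3 controls, and the monocyte-made matrix sum is higher in all 3 BAFF tumours.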

How the data were processed

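RNA-seq of 6 libraries, 3 per group, was analysed. Per the labels, TruSeq RNA v2 libraries, which do not keep strand, were sequenced on a HiSeq; the submitters' processing notes name Partek, STAR 2.4.1d and Bowtie2 2.2.5 without roles. The authors deposited 1 table of CPM, recognised from its values. No source used here gives the build, annotation or counting rule. Reads per CPM were estimated from the step between low values, of which 82.1% to 87.2% lay within 0.02 of a whole multiple, so no count model was used. No libraries of a group agreed within sampling noise (smallest chi-square per degree of freedom 7.31). The planned fit was limma-trend (limma 3.58.1, R 4.3.3) on log2(CPM + 1) for genes averaging at least 1 CPM. A pseudocount of 1 understates changes of low genes. Other scalings, pseudocounts, filters, the replicate number and omitted libraries were tried. All members are named, with the 3 genes of smallest p per further list. Members and lists were chosen with earlier results of these data known. Exon lengths and overlaps come from GENCODE M21.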

Additional observations from a re-analysis of the deposited data

How the results depend on the processing

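The planned fit on the deposited scale called 3 monocyte-made genes higher, 3 stromal genes lower, and 232 of all tested genes higher and 449 lower. RLE factors gave 12 stromal genes lower, with 921 of all genes higher and 1271 lower; upper-quartile factors gave 13, 686 and 1394. Filtering at an average of 5 CPM gave 142 higher and 174 lower over all genes, and no filter left 1 monocyte-made gene higher. Leaving out 1 library on either scale gave 0 to 4 monocyte-made genes higher, 0 to 2 stromal genes higher and 0 to 25 lower, the 25 without control tumour 3 before rescaling; after RLE alone the last range was 7 to 17. Over all genes it gave 34 to 4615 higher and 128 to 1171 lower. Single calls also ended: that of Thbs1 with no filter (limma adjusted p 0.184) and that of Vcan with no filter (0.0630) or the filter at 5 CPM (0.0677). With a pseudocount of 0.1 these counts stayed within 1.5 times.

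The labels do not say whether the replicate numbers pair the samples. Deviations of same-numbered libraries correlated at -0.06, 0.06 and -0.04, and not every library correlated best with its own number. With 3 libraries per group these correlations cannot settle whether the samples were paired. With the replicate block, 2 monocyte-made genes were higher and 3 stromal genes lower on the deposited scale, with 170 and 438 over all genes. RLE with the replicate block gave 3 monocyte-made genes higher and 17 stromal genes lower, with 781 higher and 1159 lower over all genes. The block ended the calls of Vcan (limma adjusted p 0.0811) and Sdc1 (0.0705), and with RLE those of Thbs1 (0.0598) and Efemp2 (0.0698).

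Among the 37 tested members, no other scaling, filter, pseudocount or block turned a direction, and omitted libraries turned that of 14; the cause was not tested. Over both scales, the log2 difference with 1 library left out ran from -1.26 to 0.22 for Col1a2, -1.24 to 0.77 for Col3a1, -0.81 to 0.57 for Col5a2, -1.28 to 0.17 for Col6a1, -0.82 to 0.11 for Col4a1, -0.49 to 0.11 for Lamc1. It ran from -1.21 to 0.71 for Dcn, -0.63 to 0.29 for Lum, -1.05 to 0.57 for Bgn, -0.77 to 0.46 for Fbn1, -0.94 to 0.14 for Postn and -0.82 to 0.28 for Fstl1. In all 12 the values above 0 were those without control tumour 1. Fn1 ran from -0.12 to 0.58 and Ecm1 from -0.17 to 0.58, with the values below 0 after RLE without BAFF tumour 1, without control tumour 1 (Fn1) or without control tumour 2 (Ecm1). Depth limits Lum, Lox and Postn, which had an estimated 1 or 2 reads in control tumour 3. Other members also rested on few reads there, among them Lamb1 on an estimated 3 and Col18a1 on 5. Nid2, called lower after RLE, had an estimated 11 there and 9 in BAFF tumour 3. Pcolce, called lower on both scales, rested on fewer reads than Nid2 in each of these libraries.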
